A study of Mus musculus and Homo sapiens with 180 samples.

Results

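HuDEP-2 cells were sampled in the expansion phase after pretreatment with SGC0946 or with DMSO, in 3 libraries of each, so that 6 of the series' 180 samples are described here. They were taken by their labels, which give the line, the pretreatment and the undifferentiated state. The study asked how inhibition of the H3K79 methyltransferase DOT1L alters repressive chromatin and gene expression in several cell types, and in HuDEP-2 cells whether pretreatment alters a later differentiation step. Differentiated HuDEP-2 libraries of both pretreatments (3 and 3) and a separate 168 h HuDEP-2 experiment (4 DMSO and 4 SGC0946 libraries) were set beside them. The differentiated libraries also shared the expansion libraries' model and gene filter, and with the 6 expansion libraries alone 291 of 9408 genes were called in place of 380 of 9848.

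HuDEP-2 is an immortalised human erythroid progenitor line, kept proliferating by an inducible viral transgene, and is therefore 1 line without donor replicates. No engineered deletion is named in the labels of the 6 libraries. By the study's methods, all cells grew in expansion medium with dexamethasone, doxycycline, stem cell factor and erythropoietin, and received DMSO or 5 µM SGC0946 for 7 days after plating in duplicate. The labels of both media read 7 days plus 72 h and give no dose. A schematic of the differentiation experiment instead places RNA sequencing on day 2, so the time of the differentiated libraries is uncertain. The sources used here do not say whether the expansion libraries had a second period in culture. They also do not say whether the 3 libraries of a group were separate cultures, so the p-values measure the spread between these libraries, which may be technical.

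DOT1L places methyl groups on lysine 79 of histone H3 along the bodies of transcribed genes, and SGC0946 occupies its cofactor pocket. Erythroid progenitors pass from embryonic and fetal globins to adult globins during development, and repressors such as BCL11A keep the fetal HBG1 and HBG2 genes low in adult-type cells. GATA2 marks early progenitors and is replaced by GATA1 as red cells mature.

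Genes were counted from 3′-end RNA sequencing, and levels are given as CPM, counts scaled to a common library total after TMM scaling. The DMSO expansion libraries held 8154178, 10231055 and 10951486 counts and the SGC0946 libraries 6441509, 6924264 and 8049407, so that every SGC0946 library was shallower than every DMSO library. Mitochondrial genes took 2.35% to 3.31% of counts and globins 3.18% to 3.79%. Replicate 1 stood apart in both groups, where a chi-square of counts per degree of freedom was 20.3 to 31.4 in pairs with replicate 1 and 8.11 and 10.01 between replicates 2 and 3, and same-numbered libraries deviated together, so counts from a fit with the replicate number as a block are given beside those without it. With every library thinned to the depth of the smallest of the 12 in the table, 269 genes were called (226 higher, 43 lower), and without replicate 1, 2 or 3 of every group 386, 122 and 77 were.

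The first question was which genes SGC0946 changed before differentiation. Of 9848 genes tested, 380 (3.86%) were called at an adjusted p under 0.05 by the quasi-likelihood test of edgeR. The rises outnumbered the falls, with 306 genes raised (3.11%) and 74 lowered (0.751%), a split of 80.5% to the raised side. With the replicate block 1518 genes were called (15.4%), 911 raised (9.25%) and 607 lowered (6.16%), which put 60.0% on the raised side and included all 380. The count fell to 249 without SGC0946 replicate 2 and lay between 255 and 309 without any other library. The median log2 fold change over all genes tested was -0.00. List counts below are to be read against the shares over all genes, 3.11% raised and 0.751% lowered, or 9.25% and 6.16% with the block. Lists with 0 calls lie near these shares. All following changes are log2 fold changes of SGC0946 over DMSO ± SE with 3 libraries a group, and adjusted p-values cover all genes tested. Fits without 1 library used no block, and with the block and all libraries every call among 71 examined genes was kept.

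Among the 306 raised genes the SGC0946 and DMSO libraries did not overlap for 305, and among the 74 lowered genes for 74, against 10.2% of all genes tested that were higher without overlap and 8.14% that were lower. A lack of overlap in a called gene named below therefore adds nothing to its call. The raised genes started low. Their median DMSO level was 2.90 CPM against 14.3 CPM over all genes tested, and 91 of 306 (29.7%) lay under 1 CPM in DMSO against 3.14% of all. A gene this low in DMSO passed the filter of 2 CPM in 2 libraries only through SGC0946 or differentiated libraries, so this share is set in part by the filter. Genes that passed it only through SGC0946 libraries include CPVL, CD33, BEX3, TCEAL9, CASP1, AKR1C1, S100A14, APOE, ZBTB16, CDKN1A, LIN28B, IFITM1, LYZ and CEBPE. The filter therefore sets their rises in part. The lowered genes started higher, at a median of 26.8 CPM. Of the raised genes 217 changed more than 2-fold, and of the lowered genes 20 did. The median change was 1.64 for the raised and -0.77 for the lowered genes. These medians describe genes chosen by the same test and carry no test of their own.

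The transcript of the target itself did not pass the test. DOT1L stood at 13.5, 16.5 and 17.7 CPM in DMSO and 13.5, 15.9 and 12.3 CPM in SGC0946, a change of -0.20 ± 0.23 (adjusted p = 0.80), and the groups overlapped. The compound acts on the enzyme, so the transcript does not check the label. Of 12 tested genes of DOT1L and its partners, edgeR called 0, against 3.86% of all genes, and the median change was -0.21. At an unadjusted p under 0.05, 1 of the 12 passed, against 1361 of all genes, and DESeq2, the other tool run, called 0. MLLT3, a YEATS-domain reader that binds DOT1L, stood at 146, 95.6 and 101 CPM in DMSO and 112, 68.7 and 68.8 CPM in SGC0946. Its replicate 1 was the highest in both groups, and the change of -0.46 ± 0.24 was called with the block (adjusted p = 0.43 without it and 9.27e-07 with it) and without replicate 1 of every group (0.0145). MLLT10, which recruits DOT1L to chromatin, changed by -0.30 ± 0.11 (adjusted p = 0.21, and 0.029 with the block), and PSIP1, a chromatin tether of the Menin complex, by -0.22 ± 0.13 (adjusted p = 0.48, and 0.0075 with the block).

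Polycomb subunits did not pass the test without the block, and only 3.86% of all genes tested did. PRC1.1, the Polycomb complex built on PCGF1 and BCOR that ubiquitylates histone H2A, had 7 subunits tested with a median change of -0.27, and 17 other Polycomb subunits had a median of -0.13, with 0 called by edgeR or DESeq2 in either list and 3 and 1 members at an unadjusted p under 0.05. PCGF1, RING1 and RYBP were not tested, with 0 counts each in DMSO and 7, 0 and 1 counts in SGC0946. With the block 2 PRC1.1 genes and 1 other were lowered. USP7, a deubiquitinase counted with PRC1.1, stood at 44.4, 28.5 and 23.4 CPM in DMSO and 23.4, 25.2 and 14.6 CPM in SGC0946, with overlapping groups and a change of -0.61 ± 0.22 (adjusted p = 0.20, and 0.0011 with the block). EZH2, the H3K27 methyltransferase of PRC2, changed by -0.37 ± 0.13 (adjusted p = 0.14, and 0.0062 with the block). BCOR changed by -0.55 ± 0.23 (adjusted p = 0.28, and 0.11 with the block).

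Fetal and embryonic globins had the largest changes among the red cell lists. Of 11 globin and chaperone genes tested, 4 rose (HBG1, HBG2, HBD and HBZ) and 0 fell, and the median change was 0.23. HBG1 and HBG2, the fetal gamma globins, lie on chromosome 11 (GRCh38) on the minus strand, and HBD, the minor adult delta globin, lies on the same strand. The 150 bases before each start site are shown because these 3 genes rose while the neighbouring adult gene HBB did not pass the test without the block. Capitals mark TGACCA, the core of the element to which BCL11A is known to bind, searched on both strands.
HBG1, chr11:5249858-5250007, minus strand: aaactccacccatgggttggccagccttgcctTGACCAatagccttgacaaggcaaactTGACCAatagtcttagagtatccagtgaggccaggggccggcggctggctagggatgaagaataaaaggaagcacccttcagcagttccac
HBG2, chr11:5254782-5254931, minus strand: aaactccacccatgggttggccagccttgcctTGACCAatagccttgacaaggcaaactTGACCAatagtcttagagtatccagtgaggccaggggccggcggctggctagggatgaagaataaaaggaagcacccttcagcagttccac
HBD, chr11:5234484-5234633, minus strand: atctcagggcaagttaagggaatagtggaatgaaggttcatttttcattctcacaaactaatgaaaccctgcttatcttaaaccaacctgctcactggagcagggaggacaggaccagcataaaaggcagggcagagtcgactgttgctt
The HBG1 and HBG2 stretches were identical at all 150 of 150 positions and each held the motif 2 times, and the HBD stretch held it 0 times. In 250-base windows the motif was present before 6.78% of all genes tested, 8.36% of the raised and 5.48% of the lowered genes. A match is a description, not a binding site or a cause.

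HBG1 stood at 33.9, 21.7 and 27.6 CPM in DMSO and at 137, 99.6 and 137 CPM in SGC0946, a rise of 2.17 ± 0.18 (adjusted p = 2.14e-06). HBG2 stood at 35.9, 31.8 and 34.8 CPM in DMSO and at 219, 150 and 156 CPM in SGC0946, a rise of 2.36 ± 0.20 (adjusted p = 2.14e-06). For both genes every SGC0946 library was above every DMSO library by a wide gap. The coding regions of HBG1 and HBG2 are near-identical, and how the counting divided reads between them is not known, so the pair is read together. HBZ, the embryonic alpha-like zeta globin, moved from 1.87, 3.28 and 2.97 CPM to 12.2, 14 and 13.4 CPM, a rise of 2.25 ± 0.29 (adjusted p = 0.000158). HBD moved from 105, 85.2 and 112 CPM to 229, 166 and 218 CPM, a rise of 1.02 ± 0.16 (adjusted p = 0.000921). HBE1, the embryonic epsilon globin, had 15 counts in DMSO and 24 in SGC0946 over 3 libraries each and was not called (1.14 ± 0.52, adjusted p = 0.33).

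The abundant adult globins differed by less than the spread between replicates. HBB, the adult beta globin, stood at 21745, 15917 and 19700 CPM in DMSO and 22305, 17309 and 20924 CPM in SGC0946 (0.08 ± 0.17, adjusted p = 0.93). HBA2 stood at 7578, 9884 and 11191 CPM in DMSO and 7592, 11010 and 12254 CPM in SGC0946 (0.11 ± 0.21, adjusted p = 0.91). In both genes the 3 replicates spread further within a group than the groups lay apart. HBA1, whose reads can be exchanged with those of HBA2, changed by -0.00 ± 0.13. With the block, HBB, HBA2 and the minor alpha-like gene HBM were also called higher (adjusted p = 0.0052, 0.0058 and 0.000203), which made 7 of 11. AHSP, the chaperone of free alpha globin, stood between 1675 and 1796 CPM in DMSO and between 1558 and 1790 CPM in SGC0946, and was not called in either fit.

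As a share of all beta-like globin counts, the gamma globins took 0.318%, 0.333% and 0.314% in DMSO and 1.56%, 1.41% and 1.37% in SGC0946. The 2 groups did not overlap, with means of 0.322% ± 0.0103 (SD, n = 3) and 1.44% ± 0.0994 (SD, n = 3). An exact two-sided permutation test gave p = 0.1, the smallest that 3 against 3 libraries allow. The mean share of delta globin was 0.524% ± 0.0423 in DMSO and 0.984% ± 0.0425 in SGC0946, and zeta globin took 0.0209% and 0.0989% of alpha-like counts, each with the same exact p.

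**Figure D1:**
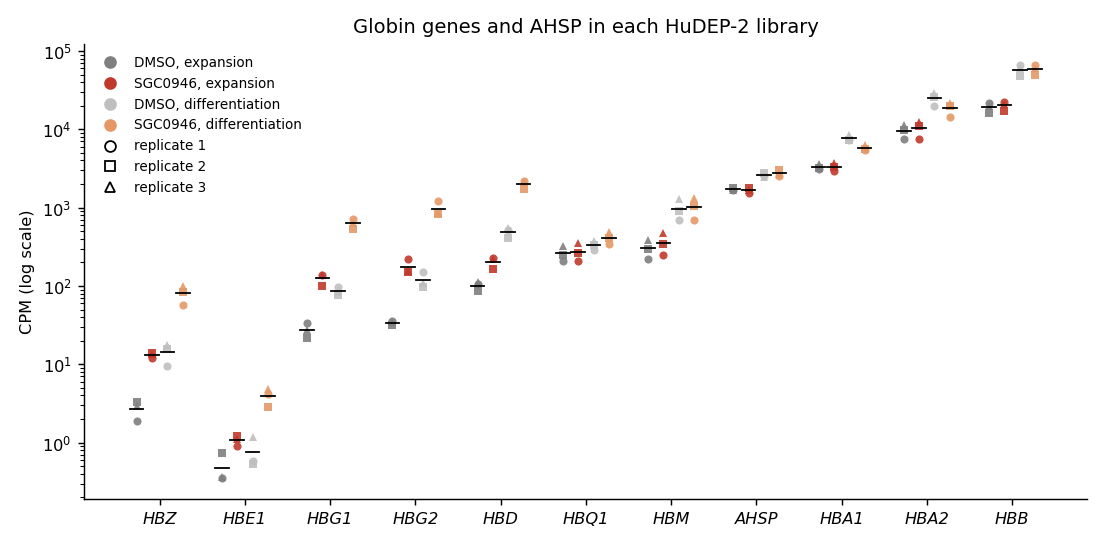
CPM of each globin gene and AHSP on a log axis in every HuDEP-2 library, by group (colour) and replicate number (marker shape), with a bar at each group mean. In expansion the SGC0946 points of HBZ, HBG1, HBG2 and HBD sit above all DMSO points, while those of HBA1, HBA2, HBB and AHSP overlap with them.

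Of 17 tested genes linked to the control of fetal globin, not all of them silencers, 2 fell (BCL11A and IKZF1), 0 rose, and the median change was -0.07. BCL11A, the zinc-finger repressor of the gamma globins, stood at 12.1, 12.4 and 13.6 CPM in DMSO and 6.60, 8.75 and 9.04 CPM in SGC0946, a fall of 0.64 on the log2 scale (-0.64 ± 0.16, adjusted p = 0.0342). All SGC0946 libraries were lower, but the call was lost without any 1 of the 6 libraries (adjusted p = 0.0518 to 0.138). It was also lost with counts thinned (-0.40, adjusted p = 0.50), whereas with the block BCL11A had an adjusted p of 0.00589. IKZF1, which encodes Ikaros, stood at 40.7, 32.2 and 36.0 CPM in DMSO and 25.2, 23.3 and 24.5 CPM in SGC0946 (-0.58 ± 0.13, adjusted p = 0.0161). Its call was lost without DMSO replicate 1 or 3 or SGC0946 replicate 2 or 3 (adjusted p = 0.0504 to 0.0707). With the block IKZF1 had an adjusted p of 0.000167. ZBTB7A, the other main gamma globin repressor, stood at 19.8, 11.9 and 13.1 CPM in DMSO and 14, 16.3 and 13.4 CPM in SGC0946, with overlapping groups (-0.03 ± 0.18, adjusted p = 0.98). With the block 6 of the 17 fell and 1 rose.

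Of 7 oncofetal RNA-binding and HMGA genes tested, 2 fell and 1 rose, with a median of -0.07. IGF2BP2, which binds and stabilises messenger RNAs, had the largest fall among genes averaging at least 10 CPM. It stood at 12.8, 14.3 and 12.7 CPM in DMSO and 5.40, 3.69 and 3.39 CPM in SGC0946 (-1.68 ± 0.20, adjusted p = 6.39e-05), with no overlap. HMGA2, an architectural chromatin protein, fell from 2.58, 3.01 and 2.61 CPM to 1.20, 0.137 and 0 CPM, on 84 and 9 counts (-2.67 ± 0.67, adjusted p = 0.0316). SGC0946 replicate 1 held nearly all of its remaining counts. Without that library the change was -5.11, and without any 1 of the other 5 the call was lost (adjusted p = 0.0609 to 0.158). LIN28B, which blocks let-7 maturation and is high in fetal cells, rose from 1.87, 1.46 and 2.07 CPM to 5.85, 4.79 and 4.77 CPM (1.5 ± 0.40, adjusted p = 0.0442), and lost its call without any 1 library (adjusted p = 0.102 to 0.174).

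Among 16 erythroid transcription factors tested, 1 was called, GATA2, and the median was -0.13. GATA2 fell from 162, 158 and 143 CPM to 65.0, 82.2 and 67.8 CPM (-1.11 ± 0.12, adjusted p = 3.6e-05), with no overlap. GATA1, the master regulator of red cell genes, changed by 0.22 and KLF1, which activates HBB, by 0.15 (adjusted p = 0.70 and 0.72, and 0.00062 and 0.0018 with the block). With the block 3 factors rose and 3 fell. ITGA4 encodes CD49d, the surface integrin lost as these cells mature. It stood at 90.9, 98.8 and 100 CPM in DMSO and 82.1, 75.6 and 74.8 CPM in SGC0946, lower in every SGC0946 library (-0.32 ± 0.11, adjusted p = 0.14, and 0.00128 with the block).

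Genes of the red cell surface rose in part. Of 21 tested, 3 rose and 0 fell, with a median of 0.11, against 3.11% raised over all genes. With the block 7 rose, against 9.25%. RHCE, a Rh antigen, moved from 13.5, 11.6 and 12.1 CPM to 26.6, 24.8 and 29.7 CPM (1.13 ± 0.14, adjusted p = 9.2e-05). CD47, the surface signal against engulfment, moved from 163, 156 and 189 CPM to 326, 252 and 314 CPM (0.81 ± 0.13, adjusted p = 0.00106). SLC4A1, the band 3 anion exchanger, moved from 28.0, 23.9 and 23.7 CPM to 43.2, 42.8 and 45.1 CPM (0.80 ± 0.11, adjusted p = 0.000398). None of these 3 had overlapping groups. RHCE reads can be shared with the near-identical RHD, which was not called (0.39, adjusted p = 0.48).

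Late maturation genes gave 2 rises and 0 falls of 18, with a median of 0.08, and 5 rises and 1 fall with the block. TSPO2, an erythroid cholesterol-binding protein of the outer membranes, rose from 14.8, 14.4 and 14.2 CPM to 36.6, 42.4 and 42.9 CPM (1.49 ± 0.13, adjusted p = 4.22e-06). MYL4, a myosin light chain of embryonic muscle and red cells, rose from 119, 124 and 133 CPM to 201, 206 and 226 CPM (0.75 ± 0.11, adjusted p = 0.000402). The replicates of both genes lay close together and the groups far apart.

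Of 15 genes of haem synthesis and transport, 1 rose and 0 fell, with a median of 0.12, whereas with the block 8 rose. UROD, the uroporphyrinogen decarboxylase, moved from 1919, 2186 and 2086 CPM to 2730, 2965 and 2944 CPM (0.48 ± 0.11, adjusted p = 0.0164). The groups did not overlap, but the call was lost without DMSO replicate 1 or 3 or SGC0946 replicate 2 or 3 (adjusted p = 0.0704 to 0.0871). With the block UROD had an adjusted p of 7.11e-18. ALAS2, the rate-limiting enzyme of erythroid haem synthesis, stood at 164, 240 and 208 CPM in DMSO and 263, 411 and 334 CPM in SGC0946. Replicate 1 was the lowest in both groups, and the change of 0.72 ± 0.20 did not pass the test of the 12 libraries (adjusted p = 0.0603). It passed with the block (3.63e-19), by DESeq2 (0.0235), with the 6 libraries alone (0.0494) and without SGC0946 replicate 1 (0.0322). Of 11 iron handling genes, edgeR and DESeq2 each called 0, 2 passed at an unadjusted p under 0.05, and the median was 0.03. With the block 2 were called higher and 1 lower. TFR2, the second transferrin receptor, changed by 0.42 ± 0.16 (adjusted p = 0.23, and 2.18e-06 with the block).

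**Figure D2:**
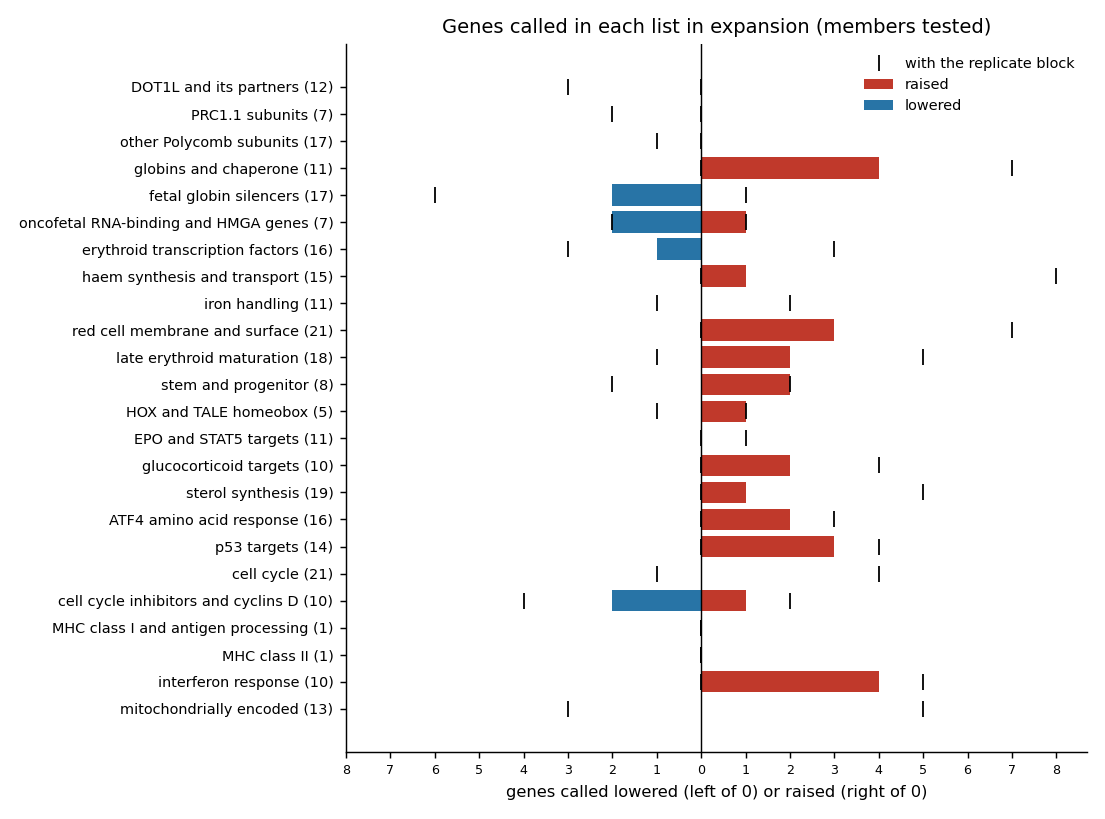
Number of tested genes in each list that were called raised (right of 0) or lowered (left of 0) in expansion, with the number tested in brackets and short vertical lines at the counts of the fit with the replicate block. Globins and the interferon list have the most raised members, 4 each, and no list has more than 2 lowered members without the block.

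The 10 largest rises among called genes averaging at least 10 CPM in the higher group were in genes of varied function. CPVL, a serine carboxypeptidase of myeloid cells, stood at 0.586, 0.182 and 0.180 CPM in DMSO and 12.8, 9.16 and 15.8 CPM in SGC0946 (5.35 ± 0.38, adjusted p = 3.65e-07), on 9 and 278 counts, and rose by 6.0 without DMSO replicate 1. PTGES, the prostaglandin E synthase, moved from 1.29, 2.64 and 1.08 CPM to 19.4, 29.5 and 28.7 CPM (3.93 ± 0.33). In both genes the lowest SGC0946 library lay several-fold above the highest DMSO library. NMU, the neuropeptide neuromedin U, moved from 1.99, 1.28 and 0.989 CPM to 19.2, 11.9 and 21.0 CPM (3.64 ± 0.31). HRH2, the histamine H2 receptor, moved from 2.81, 4.56 and 3.95 CPM to 21.2, 27.2 and 34 CPM (2.85 ± 0.26). PTGES, NMU and HRH2 had adjusted p-values of 2.14e-06, 2.14e-06 and 4.22e-06. CD33, a sialic acid receptor of myeloid progenitors, moved from 0.586, 0.365 and 0.809 CPM to 13.1, 10.5 and 7.28 CPM (4.09 ± 0.51, adjusted p = 0.000125). BEX3, BEX1, CARD16, TNNT1 and S100A16 make up the other 5 and are described with their neighbours.

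**Figure D3:**
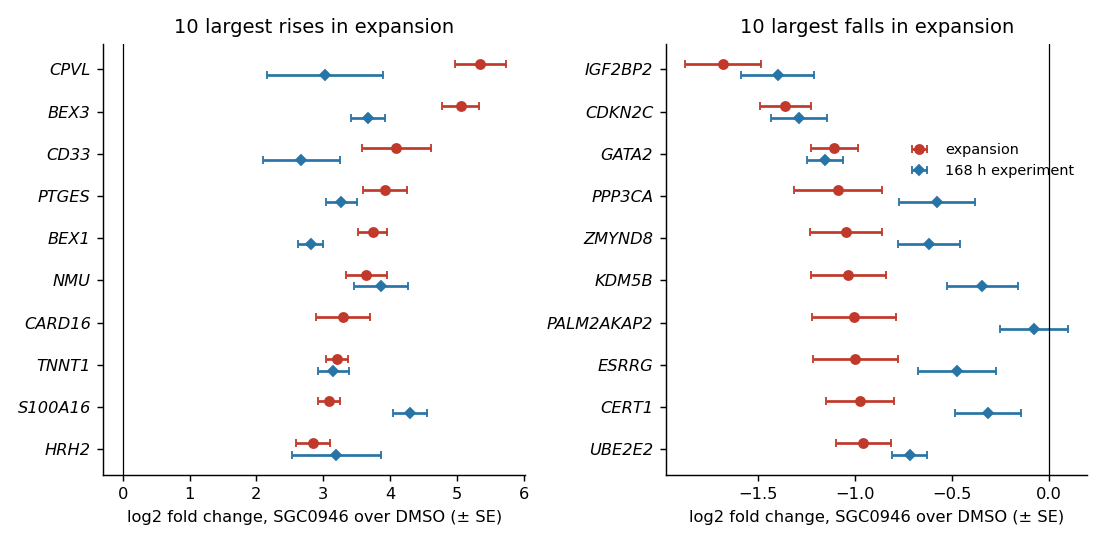
Log2 fold change of SGC0946 over DMSO ± SE for the 10 largest rises and 10 largest falls in expansion (circles) and in the 168 h experiment (diamonds). The rises reach 5.35 and the falls -1.68, and CARD16 has no diamond because its 168 h DMSO libraries held 1 count.

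The positions of the called genes were set beside those of all genes tested. Another raised gene started within 100 kb of 59 of the 299 raised genes with a position (19.7%), against 524 of 9504 tested genes (5.51%). Another lowered gene lay that close to 0 of 73 lowered genes, against 0.715% of all. Raised genes had a median length of 23.2 kb and lowered genes of 84.0 kb, against 31.6 kb over all genes tested. Their 250-base upstream windows held a median of 5.2 and 10.8 CpG per 100 bases, against 8.8 over all. These are descriptions without a test, and the groups of neighbours named in the next paragraphs were chosen after their values were seen.

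One such group lies on the long arm of the X chromosome, where BEX, TCEAL and ARMCX genes, small families of adapter, elongation factor-like and armadillo-repeat proteins, stand together. Of 20 listed, 12 were tested, 6 rose, 0 fell and the median change was 0.61. BEX3 moved from 1.17, 1.19 and 2.52 CPM to 66.6, 42.8 and 57.2 CPM (5.06 ± 0.27, adjusted p = 1.28e-08). BEX1 moved from 3.63, 2.64 and 3.86 CPM to 48.6, 41.0 and 45.8 CPM (3.74 ± 0.22, adjusted p = 2.51e-08). TCEAL9 moved from 0.234, 0 and 0.449 CPM to 6.15, 6.70 and 5.27 CPM, on 7 and 132 counts (4.64 ± 0.50, adjusted p = 6.39e-05), and its change was 4.03 without DMSO replicate 2 and 5.67 without DMSO replicate 3. TCEAL9 lay near 0 in DMSO and BEX3 and BEX1 were low, and all 3 SGC0946 libraries were far above the DMSO libraries for each gene. BEX4 (0.59 ± 0.14), TCEAL4 (0.63 ± 0.13) and ARMCX1 (0.84 ± 0.18) were already measured at 8.08 CPM or more in every DMSO library and rose less. BEX4 lost its call without DMSO replicate 1 or 3 or SGC0946 replicate 2 or 3 (adjusted p = 0.106 to 0.135). ARMCX1 lost it without DMSO replicate 1 or SGC0946 replicate 2 (0.0509 and 0.0653), and TCEAL4 without SGC0946 replicate 2 (0.0513). With the block their adjusted p-values were 4.87e-07, 0.000291 and 4.31e-07. TCEAL8 was added by the block (0.77 ± 0.23, adjusted p = 0.0832, and 2.33e-07 with it), whereas ARMCX3, ARMCX5, ARMCX6, TCEAL1 and TCEAL3 lay between -0.09 and 0.31 and were not called.

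The 100 bases before the start sites of the 6 raised genes are shown because the genes share a stretch of chromosome and moved together. Capitals mark CACGTG, an E-box, which reads the same on both strands.
BEX1, chrX:103064172-103064271, minus strand: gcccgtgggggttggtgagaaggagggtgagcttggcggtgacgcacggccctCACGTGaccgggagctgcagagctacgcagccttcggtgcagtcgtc
BEX3, chrX:103376438-103376537, plus strand: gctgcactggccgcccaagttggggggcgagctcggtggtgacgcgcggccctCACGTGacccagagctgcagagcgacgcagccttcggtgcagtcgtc
BEX4, chrX:103215008-103215107, plus strand: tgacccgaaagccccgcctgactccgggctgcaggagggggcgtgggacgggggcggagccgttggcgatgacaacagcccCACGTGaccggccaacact
TCEAL4, chrX:103585415-103585514, plus strand: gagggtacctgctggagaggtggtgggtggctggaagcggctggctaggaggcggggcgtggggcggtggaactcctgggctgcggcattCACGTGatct
TCEAL9, chrX:103356406-103356505, plus strand: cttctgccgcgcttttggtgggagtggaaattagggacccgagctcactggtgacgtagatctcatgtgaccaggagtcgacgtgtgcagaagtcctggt
ARMCX1, chrX:101550447-101550546, plus strand: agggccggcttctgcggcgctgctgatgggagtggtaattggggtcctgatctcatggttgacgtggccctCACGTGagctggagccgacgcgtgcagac
BEX1 and BEX3 were identical at 77 of 100 positions, with a longest shared run of 23 bases. In 250-base windows the E-box was present before 9 of the 12 tested genes of the group, and before TCEAL9, ARMCX5 and ARMCX6 it was not found. It was present before 9.9% of all genes tested, 9.7% of the raised and 8.22% of the lowered genes. Of those 9 genes 5 were raised and 4 were not called.

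**Figure D4:**
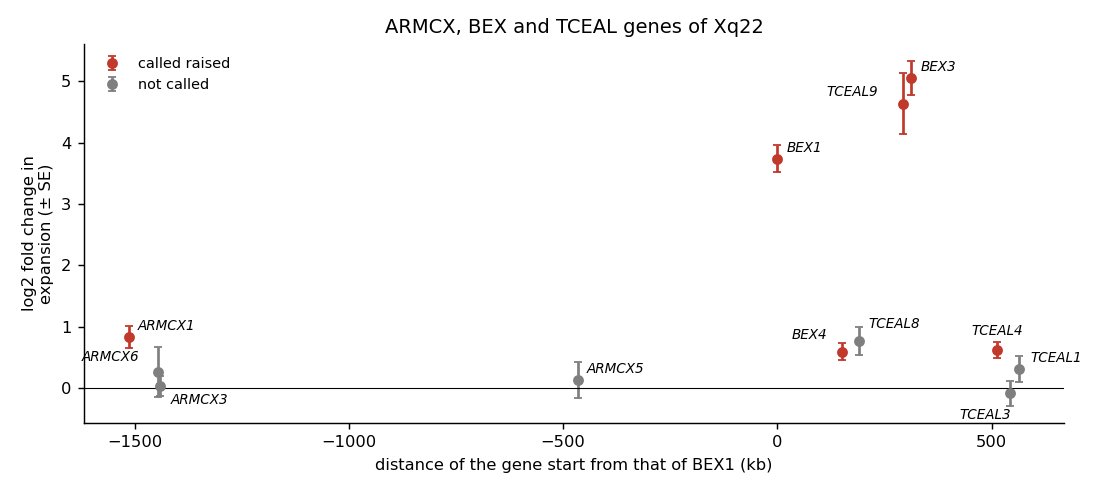
Log2 fold change in expansion ± SE of the 12 tested BEX, TCEAL and ARMCX genes against the distance of each gene start from that of BEX1 in kb. The 6 raised genes lie among uncalled ones, with BEX3, TCEAL9 and BEX1 far above the rest.

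A further group held genes of the inflammasome. On chromosome 11, CASP4, an inflammatory caspase, moved from 2.93, 1.46 and 1.35 CPM to 13.2, 8.89 and 7.03 CPM (2.37 ± 0.34, adjusted p = 0.00041). CARD16, a small inhibitor of caspase 1, moved from 2.93, 0.912 and 1.08 CPM to 18.6, 10.9 and 16.9 CPM (3.30 ± 0.40, adjusted p = 9.2e-05, and 3.93 without DMSO replicate 1). CASP1 itself had 1 count in the DMSO libraries together and 94 in the SGC0946 libraries and was called higher. PYCARD, the adapter of these caspases on chromosome 16, moved from 30.7, 33.6 and 40.8 CPM to 55.7, 69.5 and 82.6 CPM (0.98 ± 0.16, adjusted p = 0.00113). None of these genes had overlapping groups, which held for nearly all called genes. CASP1 and CARD16 adjoin and share sequence, so their reads may be divided between them by the counting.

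Neighbouring muscle genes on chromosome 19 rose as well. TNNT1, slow skeletal troponin T, moved from 4.45, 4.2 and 4.22 CPM to 37.1, 43.4 and 38.4 CPM (3.20 ± 0.16, adjusted p = 1.28e-08). TNNI3, cardiac troponin I, moved from 25.4, 35.7 and 37.6 CPM to 100, 124 and 138 CPM (1.87 ± 0.17, adjusted p = 5.95e-06). DNAAF3, a dynein assembly factor, moved from 17.1, 22.4 and 24.2 CPM to 49.4, 53.5 and 53.7 CPM (1.29 ± 0.16, adjusted p = 9.2e-05). All 3 of these adjacent genes were higher in every SGC0946 library. Also on chromosome 19, the apolipoprotein gene APOC1 moved from 80.4, 74.3 and 86.5 CPM to 412, 362 and 433 CPM (2.32 ± 0.13, adjusted p = 2.02e-08). Its neighbour APOE had 3 and 31 counts and lost its call without any 1 library other than SGC0946 replicate 1 (adjusted p = 0.0535 to 0.243), and TOMM40 and CLPTM1 on either side were not called (0.04 and 0.06).

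Of 9 tested S100A genes, which encode calcium-binding proteins on chromosome 1, 3 rose and 0 fell. With the block 5 rose. S100A16 moved from 9.49, 11.3 and 13.6 CPM to 78.6, 110 and 105 CPM (3.09 ± 0.17, adjusted p = 1.28e-08). S100A14 had 8 and 41 counts (2.76 ± 0.54, adjusted p = 0.0057, and 0.18 with counts thinned). S100A3 changed by 0.53 ± 0.14 (adjusted p = 0.0419) and lost its call without DMSO replicate 1 or 3 or SGC0946 replicate 2 or 3 (0.15 to 0.195). The abundant S100A6 and S100A4 were not called without the block (-0.24 and -0.22) but were called lower with it (adjusted p = 2.39e-08 and 7.19e-05). Both were also called lower at 168 h (-0.39 and -0.32, adjusted p = 0.00063 and 0.0068). On chromosome 10 the aldo-keto reductases AKR1C1 and AKR1C3, whose sequences are alike, rose by 2.77 ± 0.44 and 2.10 ± 0.32 (adjusted p = 0.0012 and 0.000836).

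The falls were smaller than the rises. CDKN2C, a CDK4 and CDK6 inhibitor that restrains proliferation, moved from 44.4, 36.2 and 38.0 CPM to 14.9, 14.2 and 16.9 CPM (-1.36 ± 0.13, adjusted p = 9.28e-06). ZMYND8, a reader of acetylated histones, moved from 33, 30.2 and 28 CPM to 19.2, 13.5 and 11.5 CPM (-1.05 ± 0.19, adjusted p = 0.00289). KDM5B, a demethylase of H3K4, moved from 31.0, 21.0 and 23.0 CPM to 11.7, 12.7 and 12 CPM (-1.03 ± 0.19, adjusted p = 0.00386). In all 3 every SGC0946 library was below every DMSO library. CERT1, which carries ceramide to the Golgi, fell by 0.98 on the log2 scale and the ubiquitin-conjugating enzyme UBE2E2 fell by 0.96 on the log2 scale (adjusted p = 0.00305 and 0.000656). PPP3CA, the catalytic subunit of calcineurin, moved from 12.1, 10.9 and 8.36 CPM to 4.35, 6.29 and 4.02 CPM (-1.09 ± 0.23, adjusted p = 0.0099, and 0.0706 without SGC0946 replicate 3). ESRRG, an orphan nuclear receptor, lost its call without DMSO replicate 2 or SGC0946 replicate 1 or 2 (-1.0 ± 0.22, adjusted p = 0.0143, and 0.0628 to 0.0781). PALM2AKAP2, a scaffold for protein kinase A, lost it without DMSO replicate 1 or SGC0946 replicate 2 or 3 (-1.01 ± 0.22, adjusted p = 0.0118, and 0.0509 to 0.079).

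Cell cycle genes were not called without the block by edgeR, where only 3.86% of all genes tested were called. Of 21 tested, edgeR called 0, 1 passed at an unadjusted p under 0.05 and the median was 0.03, whereas DESeq2 called 1 (CDC20) and edgeR with the block 4 higher and 1 lower. CDC20, the mitotic activator of the anaphase complex, stood at 296, 300 and 306 CPM in DMSO and 367, 378 and 382 CPM in SGC0946 (0.32 ± 0.09, adjusted p = 0.0762, and 4.53e-07 with the block). Of 10 cell cycle inhibitors and D cyclins, 1 rose and 2 fell, with a median of -0.14, and with the block 2 rose and 4 fell. CDKN1A, the p21 inhibitor, rose from 1.87, 1.55 and 0.809 CPM to 6.45, 7.93 and 5.77 CPM (2.26 ± 0.34, adjusted p = 0.000647). CCND1, a partner of CDK4 and CDK6, fell from 110, 100 and 113 CPM to 59.3, 64.0 and 63.4 CPM (-0.79 ± 0.10, adjusted p = 0.000155), and CDKN2C fell with the values already given. For each of these 3 the groups were apart in all libraries.

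Of 14 p53 targets, 3 rose (CDKN1A, GDF15 and TP53I3) and 0 fell, with a median of 0.28, and with the block 4 rose. GDF15, a secreted stress signal, moved from 3.75, 8.12 and 7.37 CPM to 17.1, 19.6 and 19.8 CPM (1.53 ± 0.22, adjusted p = 0.000527), and TP53I3, a quinone reductase, rose by 0.64 ± 0.12 (adjusted p = 0.00527). Of 16 genes of the ATF4 amino acid response, 2 rose and 0 fell, with a median of 0.15, and with the block 3 rose. These were TRIB3, a pseudokinase (1.01 ± 0.27, adjusted p = 0.047), and NUPR1, a stress-induced chromatin protein (1.20 ± 0.29, adjusted p = 0.0246). TRIB3 lost its call without any 1 library other than DMSO replicate 2 (adjusted p = 0.0624 to 0.205), and NUPR1 without DMSO replicate 1 or 2 or SGC0946 replicate 1 or 2 (0.0511 to 0.129).

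Interferon response genes had the highest median of the pathway lists, 0.66 over the 10 of 17 that were tested. Of these 4 were raised and 0 lowered, and 5 were raised with the block. IFITM1 passed the filter only through SGC0946 libraries and so had to differ, and the ranking carries no test. IFITM2, which blocks viral entry, moved from 118, 131 and 113 CPM to 213, 211 and 220 CPM (0.83 ± 0.10, adjusted p = 0.000122). IRF1, a transcription factor of the response, moved from 3.28, 1.46 and 2.07 CPM to 5.55, 5.20 and 6.40 CPM (1.37 ± 0.26, adjusted p = 0.0049). IFI6, a mitochondrial survival factor, rose by 1.71 ± 0.33 (adjusted p = 0.00499) and IFITM1, on 4 and 57 counts, by 4.18 ± 0.77 (adjusted p = 0.00355, and 5.32 without DMSO replicate 2). In the same list ISG15 (-0.05) and BST2 (0.08) were not called. MHC genes gave 1 tested member in each class, B2M and CIITA, and neither was called. In expansion 9 of 12 class I and 7 of 10 class II list members had no count. Whether they were unexpressed or missed by the counting was not tested.

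Of 10 glucocorticoid targets, which dexamethasone in the medium of both groups engages, 2 rose and 0 fell, with a median of 0.10, and with the block 4 rose. TSC22D3, the GILZ gene, moved from 51.9, 55.9 and 58.9 CPM to 84.5, 96.7 and 80.7 CPM (0.65 ± 0.11, adjusted p = 0.00177), and ZBTB16, on 24 and 83 counts, rose by 2.22 ± 0.43 (adjusted p = 0.00526). Of 19 sterol genes, 1 rose and 0 fell, with a median of 0.04. HMGCS1, the entry enzyme of the pathway, moved from 20.2, 22.5 and 20.6 CPM to 41.6, 46.0 and 45.3 CPM (1.07 ± 0.15, adjusted p = 0.000322), with no overlap. EBP, a sterol isomerase, stood at 147, 144 and 160 CPM in DMSO and 199, 181 and 204 CPM in SGC0946 (0.38 ± 0.11, adjusted p = 0.078, 2.65e-06 with the block and 0.0169 by DESeq2). With the block 5 sterol genes rose. Of 11 EPO and STAT5 targets, edgeR and DESeq2 each called 0, 1 passed at an unadjusted p under 0.05, and the median was 0.04. SOCS1 changed by 0.71 ± 0.32 (adjusted p = 0.33, and 0.00515 with the block).

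HOX and TALE homeobox genes, the best known DOT1L-dependent genes of MLL-rearranged leukaemia, were mostly too low to test here, with 5 of 28 tested. HOXB7 rose from 15.8, 17.0 and 18.2 CPM to 35.6, 28.7 and 35.8 CPM (0.97 ± 0.13, adjusted p = 0.000364). HOXB2 stood at 11.8, 17.8 and 19.3 CPM in DMSO and 7.65, 9.44 and 12.5 CPM in SGC0946 (-0.72 ± 0.21, adjusted p = 0.0693). It passed with the block (0.00199), by DESeq2 (0.0415) and without DMSO replicate 1 or SGC0946 replicate 3 (0.0174 and 0.0414). The list median was -0.50. Among 8 stem and progenitor genes, 2 rose (CD33 and LMO4, an LIM-only cofactor at 0.90 ± 0.17, adjusted p = 0.00355) and 0 fell, with a median of -0.02, and with the block 2 also fell. The 13 mitochondrially encoded genes gave 0 calls by edgeR or DESeq2, 1 at an unadjusted p under 0.05 and a median of -0.05, and 5 higher and 3 lower with the block.

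The erythroid label was checked against markers. All 14 erythroid markers used were tested, and their summed level ran from 34012 to 39238 CPM in DMSO and from 37236 to 42132 CPM in SGC0946. Of the 14, 2 rose, HBG1 and HBG2, and 8 with the block. Markers of other blood cells were near absent, apart from mast cell, basophil and eosinophil genes. Of 12 megakaryocyte markers, 1 was tested and 7 had no count in either group, PF4, PPBP and GP9 among them. ITGA2B, the CD41 integrin, fell from 11.1, 13.7 and 13.3 CPM to 5.55, 7.93 and 8.41 CPM (-0.80 ± 0.20, adjusted p = 0.0311), and lost its call without DMSO replicate 2 or 3 or SGC0946 replicate 1 or 2 (0.073 to 0.132).

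Beside the rises of CD33 and CPVL, 1 of 10 monocyte markers passed the filter, LYZ, the lysozyme gene, on 6 counts in DMSO and 49 in SGC0946 (3.41 ± 0.57, adjusted p = 0.00185). LYZ stood between 0.0899 and 0.274 CPM in DMSO and between 1.65 and 2.74 CPM in SGC0946, so it passed the filter through SGC0946 libraries and had to differ. CD14, S100A8 and S100A9 held 5, 0 and 1 counts in DMSO and 7, 1 and 1 in SGC0946. Of 9 granulocyte markers, 1 was tested, CEBPE, a granulocyte transcription factor, which rose on 16 and 75 counts (2.67 ± 0.48, adjusted p = 0.00309, and 0.0665 with counts thinned), while MPO, ELANE, AZU1 and PRTN3 had 0 counts in both groups. CEBPE reached 2 CPM only in SGC0946 expansion libraries, so it had to differ. The rises of CD33 and CPVL are set in part by the filter too. The 5 tested mast cell, basophil and eosinophil markers summed to 513 to 1167 CPM in DMSO and 629 to 1156 CPM in SGC0946. Of these edgeR and DESeq2 each called 0, 2 passed at an unadjusted p under 0.05, and the median was -0.34. With the block 2 were called higher and 2 lower. PRG2, the eosinophil granule major basic protein, stood at 149, 304 and 269 CPM in DMSO and 312, 551 and 516 CPM in SGC0946 (0.93 ± 0.29, adjusted p = 0.0976, 1.11e-21 with the block, and 0.0449 without SGC0946 replicate 1). The mast cell tryptases TPSAB1 and TPSB2, which are alike in sequence, changed by -0.44 and -0.40 (adjusted p = 0.61 and 0.70, and 6.65e-07 and 2.48e-07 with the block). CPA3, a mast cell carboxypeptidase on 8 and 32 counts, changed by 2.45 (adjusted p = 0.104, and 0.0294 with the block). Of 11 lymphoid markers, 1 was tested, CD3D, on 9 and 27 counts, and it was called only with the block (adjusted p = 0.113, and 0.0414 with it). In bulk libraries a change in the share of cells and a change within each cell cannot be told apart.

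The same contrast after differentiation, in other libraries, was set beside the expansion values. There 825 genes were called (8.38%), 627 higher (6.37%) and 198 lower (2.01%), and 514 were called without SGC0946 differentiation replicate 3 and 527 without DMSO differentiation replicate 3. With the block 2455 genes were called (24.9%), 1268 higher (12.9%) and 1187 lower (12.1%), a near even split. Of the 306 genes raised in expansion, 293 had a positive change and 225 (73.5%) were called higher in differentiation, while 1 was called lower. Of the 74 lowered genes, 62 had a negative change, 27 (36.5%) were called lower and 3 were called higher. HBG1 and HBG2 changed by 2.87 and 3.04 there, and GATA2 by -0.44 (adjusted p = 0.0596). The gamma share was 0.351% in DMSO and 2.56% in SGC0946 after differentiation. A test of the difference itself called 47 of 9848 genes (0.477%), 8 with a higher change in expansion (0.0812%) and 39 with a lower one (0.396%). Leaving out 1 library gave 23 to 44, with 27 and 23 without SGC0946 expansion replicate 2 or 3, 30 and 29 without DMSO differentiation replicate 2 or 3 and 26 without SGC0946 differentiation replicate 3. Leaving out replicate 2 or 3 of every group gave 1 each. With the block the count was 887 (9.01%) and the split turned, with 500 higher (5.08%) and 387 lower (3.93%). For the globins the difference was not called without the block, HBD coming nearest (-1.02, adjusted p = 0.0533). With the block it was called for 6 of the 11, lower in expansion for HBD, HBG1, HBG2 and HBQ1 (adjusted p = 4.79e-19, 1.76e-07, 2.13e-08 and 0.0228) and higher for HBA1 and HBA2 (2.25e-10 and 2.51e-16).

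Among the genes whose change differed between the media, TUBA1A, an alpha tubulin, moved from 27.5, 40.7 and 37.9 CPM to 118, 149 and 144 CPM in expansion (1.95 ± 0.15, adjusted p = 5.38e-07) and by 0.81 in differentiation (difference 1.14, adjusted p = 0.0139). CBX1, which encodes the heterochromatin protein HP1 beta, rose by 0.50 ± 0.12 in expansion and fell in differentiation (-0.51, difference 1.02, adjusted p = 0.00903). Its expansion call was lost without DMSO replicate 2 or SGC0946 replicate 3 (adjusted p = 0.117 and 0.114). PALM2AKAP2 fell in expansion and rose in differentiation (1.74). PKM, the pyruvate kinase of glycolysis, changed by 0.75 ± 0.19 in expansion and by 2.91 in differentiation (difference -2.16, adjusted p = 0.00147). Its expansion call was lost without DMSO replicate 1 or 3 or SGC0946 replicate 2 or 3 (0.0972 to 0.165). With the block PKM had an adjusted p of 2.17e-14 in expansion. PDE6G, a phosphodiesterase subunit, rose by 1.1 ± 0.23 in expansion against -0.42 in differentiation (difference 1.52, adjusted p = 0.0368), with its expansion call lost without DMSO replicate 1 or 2 or SGC0946 replicate 2 (0.0502 to 0.0646).

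The 168 h experiment gave separate libraries of the same line and compound, labelled 5 µM, and was fitted on its own table. In it 824 of 10099 genes were called (8.16%), 511 higher (5.06%) and 313 lower (3.1%). Of the raised genes 268 were tested there, 259 had a positive change, 207 (77.2%) were called higher and 0 lower. Of the lowered genes 74 were tested, 68 had a negative change, 29 (39.2%) were called lower and 0 higher. Their median changes at 168 h were 1.41 and -0.42. In expansion the medians were 1.64 over all 306 raised genes, more than were tested at 168 h, and -0.77 over the lowered genes. The expansion medians come from genes chosen by that same test, so the 2 sets of medians are not directly comparable.

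Several named genes passed the test at 168 h as well. HBG1 and HBG2 rose by 1.49 and 1.40 (adjusted p = 1.99e-08 and 4.05e-09), and the gamma share went from 0.788% ± 0.0398 to 2.35% ± 0.200 (SD, n = 4, exact two-sided permutation p = 0.0286, the smallest possible). Of 10 globin and chaperone genes tested there, 4 rose and 4 fell. The falls were in HBA1, HBA2, HBM and HBQ1 (-0.66, -0.61, -0.56 and -0.40, adjusted p = 4.72e-07, 8.86e-07, 8.48e-05 and 0.0103). In expansion HBA2 and HBM had been called higher with the block, and HBA1 and HBQ1 in neither fit. BEX3 and BEX1 rose by 3.67 and 2.81, S100A16 by 4.29 and APOC1 by 1.90. GATA2, CDKN2C and IGF2BP2 fell there (-1.16, -1.29 and -1.40). Others did not pass at 168 h, such as BCL11A (-0.58, adjusted p = 0.0967), LIN28B (-0.32, 0.56), SLC4A1 (-0.09, 0.80), KDM5B (-0.35, 0.30) and PALM2AKAP2 (-0.08, 0.86). Whether these responses differ from those in expansion was not tested, since the tables were scaled separately.

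**Figure D5:**
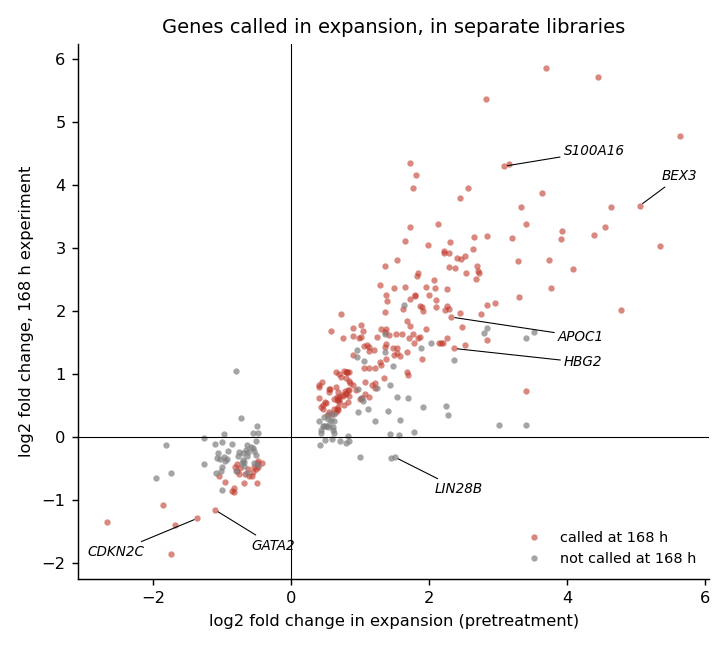
Log2 fold change at 168 h against that in expansion for the genes called in expansion and tested at 168 h, genes with up to 3 counts in a group left out, coloured by whether they were called at 168 h. Most raised genes lie in the upper right and most lowered genes in the lower left. Over all 268 raised and 74 lowered genes tested at 168 h, with those left out included, the medians there were 1.41 and -0.42.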

How the data were processed

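RNA of HuDEP-2 cells was sequenced from the 3′ end in 12 libraries (expansion and differentiation, DMSO or SGC0946 pretreatment) and, in a separate table, in 8 libraries at 168 h. The deposited values were raw counts per gene: bbmap trimming, STAR alignment to GRCh38 and STAR's own gene counting made them, and the authors passed them to Degust. The annotation and strand setting behind the counts are not given in the sources used here, so antisense partners, overlapping genes and near-identical copies (HBA1 and HBA2, HBG1 and HBG2, AKR1C1 and AKR1C3) may exchange reads. Rows that name no gene held at most 0.000318% of a library and were left out.

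Genes at 2 CPM or more in at least 2 libraries were kept (9848 and 10099). All 12 libraries were fitted in 1 model with a term per group in edgeR 4.0.16 (R 4.3.3), with TMM scaling, quasi-likelihood tests and Benjamini-Hochberg adjustment over all genes tested. The difference of the expansion and differentiation responses was tested as a contrast, and the 168 h table was fitted alone. The same-numbered DMSO and SGC0946 expansion libraries deviated together from their group means (r = 0.176 to 0.358 across genes, and 0.132 to 0.381 over all pairs of groups), so a fit with the replicate number as a block was set beside the main one. Scripts were tested on simulated counts with 200 changed genes. Positions and upstream sequences came from GENCODE v44 canonical transcripts on GRCh38 and are not necessarily the models used for counting. Libraries of 6441509 to 10951486 counts limit precision most for genes of few counts, and the SEs come from the spread between libraries.

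Genes were named by rule: DOT1L, ZBTB7A and ITGA4; the 10 largest rises and 10 largest falls among called genes averaging at least 10 CPM in the higher group; up to 4 called members of each list, or up to 2 of smallest p, and all tested globins and DOT1L partners; and the 5 largest differences between the media in each direction. The members, lists and tests were chosen with earlier results of these data known. Some genes of the rule and the lists are not reported here, and the lists' counts leave them out.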

Additional observations from a re-analysis of the deposited data

Results flagged for a closer look

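In the 168 h experiment 5 of 68 groups of 4 libraries held a library far from the others by Dixon's test, which chance gives in about 1 in 20 groups. ZBTB7A was 14.6 CPM in 1 SGC0946 library against 8.72 to 9.14 CPM in the others. CARD16 was 0.197 CPM in 1 DMSO library and 0 in the others, and 1.87 CPM in 1 SGC0946 library against 5.09 to 5.61 CPM. PPP3CA was 16.7 CPM in 1 DMSO library against 15.3 to 15.5 CPM, and the gamma share of beta-like counts was 0.848% in 1 DMSO library against 0.767% to 0.769%.

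The change under SGC0946 differed between expansion and differentiation for named genes by the edgeR test of the difference, given here as the log2 fold change in expansion minus that in differentiation. Lower in expansion were NMU (-2.54, adjusted p = 0.0194), PALM2AKAP2 (-2.75, 0.00257), PKM (-2.16, 0.00147), EPAS1, an oxygen-sensing factor (-2.17, 0.0101), CST7, a protease inhibitor (-1.98, 0.00658), and STAT5A, a mediator of erythropoietin signalling (-0.98, 0.0149). EPAS1, CST7 and STAT5A were not called in expansion without the block (-0.33, -0.14 and -0.33) and rose in differentiation (1.84, 1.84 and 0.65). With the block STAT5A was called lower in expansion (adjusted p = 0.0172). Higher in expansion were PDE6G (1.52, 0.0368), TUBA1A (1.14, 0.0139), CBX1 (1.02, 0.00903), A4GALT, which makes the P1 and Pk antigens (1.36, 0.0328), and PGD, an enzyme of the pentose phosphate pathway (0.92, 0.00658). A4GALT and PGD were not called in expansion without the block (0.14 and 0.27) and fell in differentiation (-1.22 and -0.65). With the block PGD was called higher in expansion (adjusted p = 0.000443). All 11 differences were called with the replicate block too.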

How the results depend on the processing

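The count of genes changed in expansion was 380, and lay between 291 and 494 under other scalings, DESeq2, other filters and limits and with only the 6 libraries compared. The replicate block gave 1518, and 1411 with only the 6 libraries. Alternatives chosen after seeing the data gave 122 without replicate 2 of every group, 77 without replicate 3 and 1394 without replicate 1 with the block. Leaving out 1 library gave 249 to 309. For differentiation the block gave 2455, and 2589 with only the 6 libraries, leaving out 1 library 514 to 693, leaving out replicate 2 or 3 of every group 311 and 222, and replicate 1 with the block 2250. For the difference of the responses, 47 genes, the values were 125 by DESeq2, 121 without a filter, 78 at the limits in the methods, 887 with the block, 23 to 44 without 1 library, 1 without replicate 2 and 1 without replicate 3 of every group, and 786 without replicate 1 with the block. At 168 h 76.4% of calls were higher with library size only and 81.7% at the limits in the methods, against 62.0%. There the replicate numbers did not pair the libraries (r = -0.0423 to 0.000898), and the block gave 682. No scaling moved the median of all genes by 0.1.

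Of 71 called genes among those examined, 0 changed sign in any alternative. With the block all 71 kept their call and 24 others passed, and it ended no call. Without 1 library 6 to 17 of the 71 lost their call, without replicate 2 of every group 34 of 70 and without replicate 3 46 of 71. With counts thinned 11 lost it, BCL11A, ESRRG, HMGA2, LIN28B, TRIB3, ITGA2B, CEBPE, PDE6G, APOE, S100A3 and S100A14 (adjusted p = 0.0576 to 0.497). Some uncalled genes changed sign. Without 1 library their ranges were A4GALT -0.014 to 0.26, AHSP -0.091 to 0.012, B2M -0.0795 to 0.24, CIITA -0.31 to 0.10, CST7 -0.33 to 0.029, ELL2 -0.19 to 0.20, HBA1 -0.091 to 0.081, HBA2 -0.042 to 0.28, HBB -0.044 to 0.17, HBM -0.036 to 0.45, HBQ1 -0.15 to 0.27, KMT2A -0.25 to 0.21, MEN1 -0.023 to 0.30, MLLT1 -0.072 to 0.26 and ZBTB7A -0.17 to 0.21. Without replicate 1 of every group, ELL2 was 0.26 (0.25 with the block), KMT2A 0.14 (0.15), ZBTB7A 0.24 (0.24) and HBA1 0.033 (0.033). MLLT1 was -0.21 without replicate 2, and A4GALT -0.0958, AFF4 0.22 and CIITA 0.31 without replicate 3. ELL2 was 0.13 with counts thinned, and HBA1 0.0021 with only the 6 libraries. The cause was not tested.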

Other observations

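Of the 306 raised genes, 12 held at most 3 counts in the DMSO expansion libraries together, so no fold change is given for them. They were singled out after their values were seen. FAM110B had 0 DMSO counts and 38 in SGC0946. GNG11, a G protein gamma subunit, had 1 and 93 counts. LINC01234, a long noncoding RNA, had 2 and 54 counts. KLRC2, a natural killer cell receptor whose sequence is shared with other KLRC genes, had 2 and 44, SPRR2E, a cornified envelope protein, 1 and 38, and CD69, an early activation antigen of lymphocytes, 2 and 26. In the 168 h libraries GNG11 had 3 DMSO and 136 SGC0946 counts. At the depth of the DMSO libraries these genes cannot be told from unexpressed ones.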
